A study of Mus musculus with 6 samples.

Results

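The urea cycle and periportal nitrogen genes are 10 genes through which the liver collects ammonia and turns it into urea. They were taken as the genes Cps1, Otc, Ass1, Asl, Arg1, Nags, Gls2, Hal, Sds and Slc25a15, and every probe that the array files name for them was used, which gave 14 of the 41174 probes that are not controls. All 14 were well above background on all 6 arrays and 0 were saturated, so none was lost to the filter on dim probes.

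The data are liver gene expression of male BALB/c mice that drank either normal sterile water (control, 3 livers) or water with microcystin-LR (MC-LR) at 100 µg/L (3 livers). Both groups started at 6 weeks of age and were kept on their water for 12 months. MC-LR is a cyanobacterial toxin that is taken up by hepatocytes and inhibits protein phosphatases. Each liver came from a different mouse, per the series' design text, and its RNA was read on 1 Agilent array with a single dye.

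The urea cycle runs in hepatocytes, most strongly in those around the portal vein. N-acetylglutamate, made by NAGS, switches on CPS1, which joins ammonia and bicarbonate in the mitochondrion. OTC passes the product to ornithine to make citrulline, the carrier SLC25A15 exchanges ornithine for citrulline, and in the cytosol ASS1, ASL and ARG1 lead on to arginine and urea. GLS2, HAL and SDS release ammonia from glutamine, histidine and serine in the same cells, while pericentral hepatocytes capture what is left through glutamine synthetase.

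Values below are the authors' log2 signal after quantile normalization, where a step of 1 is a 2-fold change of signal, and differences are MC-LR minus control. Controls 1 and 2 lay on slide 1 of the files' headers, and control 3 and the 3 MC-LR livers on slide 2. Between 64.2% and 73.1% of probes were well above background on an array, and the number of arrays limits the precision. Of 10 hepatocyte markers 8 were measured, each well above background on all 6 arrays, and albumin (Alb) averaged 18.07 ± 0.09 in the control livers and 18.18 ± 0.04 in the exposed ones (mean ± SD, n = 3 per group). The differences of the 8 ran from -0.50 to 0.19 with a median of 0.02, and 4 lay above 0. The lowest was that of the fibrinogen chain Fgb, named after its values were seen, whose groups did not overlap (adjusted p = 0.293, limma).

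The sequences that bear on the results are shown first. Ass1 has a pair of probes that are not independent readings, since the last 20 bases of the first are the first 20 of the second. They are printed with the shared bases in capitals, 5′ to 3′ on the transcript's strand.
Ass1 A_52_P361165: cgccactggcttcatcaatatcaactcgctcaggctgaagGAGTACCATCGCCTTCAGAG
Ass1 A_51_P338713: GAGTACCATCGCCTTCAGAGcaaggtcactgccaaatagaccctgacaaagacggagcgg
In mm9, the build the file headers name, the first lies at chr2:31374279-31375918 on the plus strand, a span longer than the probe, so its target crosses an exon junction. The second lies at chr2:31375899-31375957. The files list the first probe also under a transcript that RefSeq assigns to Gm5424, a transcribed pseudogene, so its signal may include RNA of that copy. Of the 3 Otc probes, the one below crosses a junction too (chrX:9853843-9877490, plus strand). It is shown because it was the sole probe of the 14 on which the groups did not overlap.
Otc A_51_P126563: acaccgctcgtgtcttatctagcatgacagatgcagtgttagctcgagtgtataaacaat

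No member changed at the threshold. In limma's test over 28500 probes, 0 of the 14 member probes passed an adjusted p under 0.05 (adjusted p from 0.465 to 0.984), against 0.0105% of all probes. At an unadjusted p under 0.05 the count was also 0 of 14, where 12.9% of all probes were below that value, 7.89% higher and 5.03% lower with MC-LR (limma). The groups did not overlap on 1 of the 14 probes, against 20.3% of all probes. Of the differences, 9 of 14 lay above 0, where 50.4% of all probes did, with a median of 0.12 (0.00 over all probes). With 1 probe per gene, 6 of 10 members lay above 0, where 48.5% of all genes did. Without slide in the fit, the 95% confidence intervals of 12 probes lay within a 2-fold change in either direction. Those of Asl and Sds reached past it on the higher side (1.10 and 1.24). The plot of every probe on every array shows how far the arrays of a group spread beside the step between the group means.

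**Figure D1:**
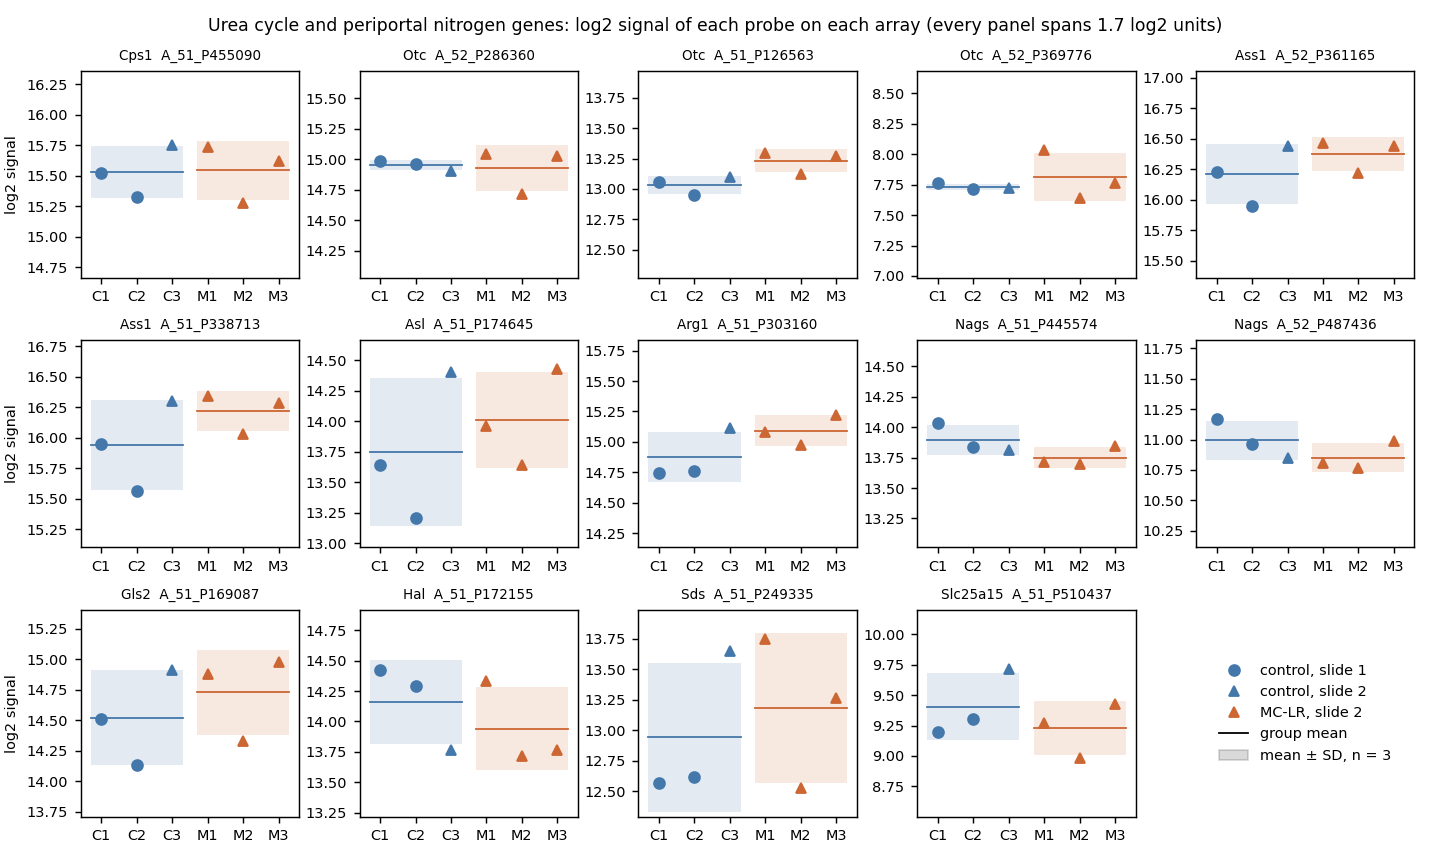
Log2 signal (y axis) of the 14 probes on each of the 6 arrays (x axis; C1 to C3 are controls, M1 to M3 are MC-LR livers), with circles for slide 1, triangles for slide 2, lines at group means and bands of ± 1 SD (n = 3). The groups overlap on every probe except Otc A_51_P126563, and control 3 sits beside the MC-LR arrays for Arg1 and Ass1.

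The mitochondrial steps came first in the comparison. Nags, whose product switches the cycle on, stood at 14.03, 13.84 and 13.81 in controls 1 to 3 and at 13.71, 13.69 and 13.85 in MC-LR 1 to 3. Its second probe stood at 11.17, 10.96 and 10.85 against 10.81, 10.76 and 10.98. On both probes control 1 was the highest array and MC-LR 2 the lowest, and MC-LR 3 lay among the controls. The differences of -0.14 ± 0.11 and -0.14 ± 0.13 (SE) did not pass (adjusted p = 0.608 and 0.667, limma), with intervals of -0.41 to 0.12 and -0.45 to 0.17. The probes lie at chr11:102010718-102010776 and chr11:102009515-102009574 in mm9.

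Cps1, the entry enzyme of the cycle, stood at 15.52, 15.33 and 15.75 in controls and at 15.74, 15.28 and 15.62 with MC-LR. The 2 highest arrays were control 3 and MC-LR 1, and the 2 lowest control 2 and MC-LR 2, so the ranges of the groups overlapped almost fully. Its difference of 0.01 ± 0.17 (SE) was the smallest of the 14 in size, with an interval of -0.40 to 0.43 (adjusted p = 0.984, limma). The probe lies at chr1:67277466-67277525 in mm9.

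Otc, which makes citrulline, was read by 3 probes that did not give the same picture. The brightest stood at 14.99, 14.96 and 14.91 in controls and at 15.04, 14.71 and 15.03 with MC-LR, and differed by -0.02 ± 0.12 (SE). The probe printed above stood at 13.05, 12.95 and 13.10 against 13.29, 13.12 and 13.27. On it all 3 MC-LR arrays lay above all 3 controls, but the gap between MC-LR 2 and control 3 was narrow. Its difference of 0.20 ± 0.10 (SE) is a 1.15-fold higher signal with an interval of -0.05 to 0.44, and it had the smallest unadjusted p of the 14 (0.0990, adjusted p = 0.465, limma). The third probe, named for another transcript of the gene (chrX:9893244-9893303), stood at 7.76, 7.71 and 7.72 against 8.03, 7.64 and 7.77, where MC-LR 1 was highest and MC-LR 2 lowest.

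Slc25a15, the ornithine carrier of the mitochondrial membrane, stood at 9.20, 9.30 and 9.72 in controls and at 9.27, 8.99 and 9.42 with MC-LR. Control 3 was the highest array and MC-LR 2 the lowest. The difference was -0.18 ± 0.18 (SE), with an interval of -0.63 to 0.27 (adjusted p = 0.713, limma). With slide as a block it was -0.49, with an interval of -0.99 to 0.02 and the smallest unadjusted p of the 14 probes in that fit (0.0555, adjusted p = 0.338, limma).

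The cytosolic enzymes each lay higher on average with MC-LR, and none passed. Arg1, the arginase that releases urea, stood at 14.75, 14.76 and 15.12 in controls and at 15.08, 14.97 and 15.22 with MC-LR. Controls 1 and 2 lay below all MC-LR arrays, while control 3 lay above MC-LR 1 and 2. The difference was 0.22 ± 0.14 (SE), 1.16-fold, with an interval of -0.13 to 0.56 (adjusted p = 0.554, limma). The probe lies at chr10:24636194-24636253 in mm9, on the minus strand.

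Ass1, which joins citrulline and aspartate, stood on its brighter probe at 16.23, 15.95 and 16.44 in controls and at 16.47, 16.22 and 16.44 with MC-LR. Its other probe stood at 15.95, 15.56 and 16.30 against 16.34, 16.03 and 16.29. Control 2 was the lowest array and MC-LR 1 the highest on both. The differences were 0.17 ± 0.16 and 0.28 ± 0.21 (SE; adjusted p = 0.680 and 0.595, limma).

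Asl, which splits argininosuccinate into arginine and fumarate, had among the widest spreads of the members. It stood at 13.64, 13.20 and 14.41 in controls and at 13.96, 13.64 and 14.43 with MC-LR. The lowest and the highest array differed by more than 1 on the log2 scale, control 3 and MC-LR 3 lay at the top, and control 1 and MC-LR 2 were level. The group difference of 0.26 ± 0.35 (SE) was smaller than the SD within controls (0.61) and within MC-LR (0.40), with an interval of -0.59 to 1.10 (adjusted p = 0.782, limma). The probe crosses a junction at chr5:130487964-130488549 in mm9.

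The ammonia-releasing enzymes of the periportal zone varied more between livers than between groups. Gls2, the liver glutaminase, stood at 14.51, 14.13 and 14.91 in controls and at 14.88, 14.33 and 14.98 with MC-LR. Control 2 and MC-LR 2 were its lowest arrays. The difference was 0.21 ± 0.26 (SE), with an interval of -0.41 to 0.84 (adjusted p = 0.759, limma).

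Sds, the serine dehydratase, stood at 12.56, 12.62 and 13.65 in controls and at 13.75, 12.53 and 13.26 with MC-LR. Control 3 and MC-LR 1 were high and MC-LR 2 was as low as controls 1 and 2. Its SD was 0.61 in controls and 0.62 with MC-LR (n = 3 each), and 94.0% of all probes varied less within groups. The difference of 0.24 ± 0.41 (SE) carried the widest interval of the members, -0.76 to 1.24 (adjusted p = 0.835, limma).

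Hal, the histidine ammonia lyase, stood at 14.42, 14.29 and 13.77 in controls and at 14.33, 13.72 and 13.77 with MC-LR. Controls 1 and 2 and MC-LR 1 were high, and the other 3 arrays were low. The difference was -0.22 ± 0.24 (SE), with an interval of -0.81 to 0.36 (adjusted p = 0.726, limma). Hal was the member with the lowest average difference, and the order of its arrays ran against that of Asl and Gls2 in control 3 and MC-LR 3.

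Across the brightest probe of each of the 10 genes, MC-LR 2 was the lowest of the 6 arrays for 6 genes and above the gene's own mean for 0. MC-LR 3 was above the mean for 9 genes, MC-LR 1 for 8, control 3 for 7 and controls 1 and 2 for 3 each. These counts were not taken over all genes, so whether they are particular to the members was not tested. The median distance from the gene's mean over the 10 genes was -0.25 in MC-LR 2, 0.14 and 0.13 in MC-LR 1 and 3, 0.18 in control 3, and -0.09 and -0.22 in controls 1 and 2. The within-group SD of the 14 probes ran from 0.09 to 0.61 with a median of 0.21, beside a median of 0.20 over all probes.

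**Figure D2:**
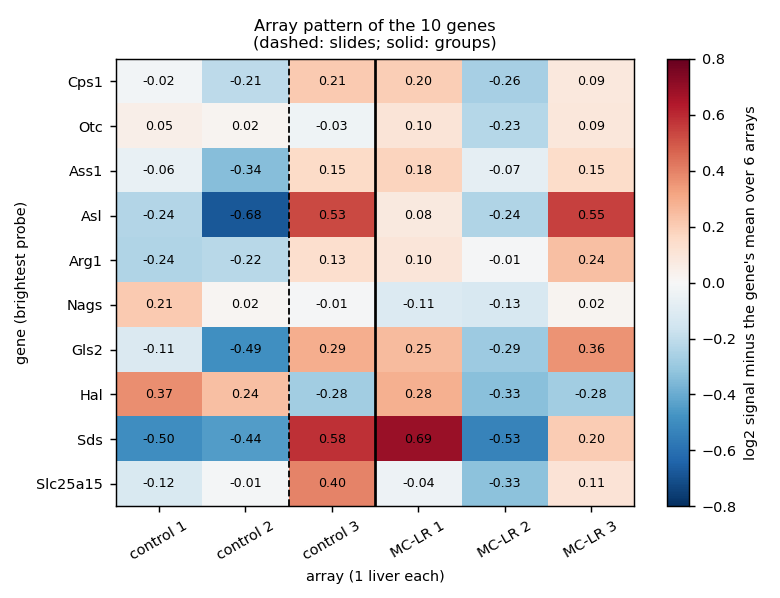
Log2 signal of the brightest probe of each of the 10 genes (rows) on each array (columns), minus the gene's mean over the 6 arrays, with the dashed line between slides and the solid line between groups. MC-LR 2 is below the mean for all 10 genes, and Sds runs from -0.53 in MC-LR 2 to 0.69 in MC-LR 1.

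Control 3, the only control on the slide of the MC-LR arrays, stood apart from controls 1 and 2. It lay above both of them on 9 of the 14 member probes, where 38.8% of all probes did. Its difference from their mean was 1.06 for Sds, 0.98 for Asl, 0.59 for Gls2, 0.47 for Slc25a15, 0.36 for Arg1 and -0.59 for Hal, with a median of 0.34 over the member probes and -0.02 over all probes. Slide and the liver on it cannot be told apart here, since only 1 control shares slide 2.

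Markers of some other cell types, those of Kupffer cells, cholangiocytes and lymphocytes, also stood apart in control 3 by their medians. Its median difference from controls 1 and 2 was 0.69 over 8 Kupffer cell markers, 1.03 over 5 of 6 cholangiocyte markers, 0.82 over 7 of 8 lymphocyte markers, 0.27 over 8 stellate markers, -0.20 over 8 endothelial markers and -0.17 over 3 of 7 erythroid markers. The hepatocyte markers differed by a median of -0.10. Single genes departed from these medians, and those given next were named after their values were seen. Among hepatocyte markers, Apoa1 read 16.80, 16.68 and 15.70 in controls 1 to 3 and Ttr 12.76, 12.76 and 11.97. Alb, at 18.03, 18.01 and 18.17, was higher in control 3. The Kupffer marker Clec4f, at 13.35, 13.27 and 13.09, was lower in control 3. The summed signal of the Kupffer markers ranged from 40623 to 66085 in controls and from 29692 to 48176 with MC-LR, that of the cholangiocyte markers from 6901 to 13246 and from 4425 to 11354, and that of the lymphocyte markers from 1412 to 2836 and from 1251 to 2097 (linear scale of the normalized signal). That of the endothelial markers ranged from 22877 to 33790 and from 20064 to 26023. In such sums the brightest marker weighs most. Among the cholangiocyte markers Spp1 averaged 13.00 in controls (log2), and the next, Sox9, 9.45. Among the Kupffer markers Cd5l averaged 14.63 in controls, and the next, Clec4f, 13.23. Between the groups, the 8 Kupffer markers and the 8 endothelial markers all lay below 0 (MC-LR minus control). Of all genes, 48.5% lay above 0. The smallest differences in size were those of the Kupffer marker Cd68 and the endothelial marker Stab1, each at -0.02 and named after their values were seen. The medians of the Kupffer and endothelial markers were -0.23 and -0.36, and -0.65 and -0.11 with slide as a block. Of these 16 genes 0 passed the adjusted threshold (limma). At an unadjusted p under 0.05, 2 endothelial markers were lower, where 5.36% of all genes were. They were Pecam1 and Cdh5, named after their values were seen. Pecam1, an adhesion protein, differed by -0.54 (adjusted p = 0.216, limma) and Cdh5 by -0.44. With slide as a block they stood at -0.58 and -0.54, and Lyve1 (-1.33) and Stab1 (-0.23) also lay below 0. Stab2 (0.02), Clec4g (0.03), Kdr (0.13) and Tek (0.18) stood above 0 in that fit. None of the measured markers was at 0, while Cftr and Ncr1, among others, did not pass the filter. Their part in the members' values was not tested. In whole liver, fewer cells of a type and less RNA per cell cannot be told apart.

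With slide as a block, a fit in which control 3 is the only control that sets the difference, 10 of the 14 differences changed sign. The share of all probes that did so is not given here, so the count is not read as particular to the members. Some of the 10 lay near 0, such as Cps1 without slide in the fit. Asl went from 0.26 to -0.40, Sds from 0.24 to -0.47, Gls2 from 0.21 to -0.18, Cps1 from 0.01 to -0.21 and Hal from -0.22 to 0.17. In that fit 0 of 14 probes passed (limma), against 0.0456% of all probes, and 0 had an unadjusted p under 0.05, against 15.3%. Without control 3, where slide and group coincide, Arg1 differed by 0.34 and the fainter Ass1 probe by 0.46. The unadjusted p of 0.0292 for Arg1 was the smallest of the members there (limma). These were the 2 of 14 member probes under an unadjusted p of 0.05, where 5812 of 28500 probes were below it (limma). Neither passed after adjustment (adjusted p = 0.197 and 0.220, limma). No direction of change with MC-LR held for the members across these fits apart from Nags (its brighter probe), Slc25a15 and a pair of Otc probes (A_51_P126563 and A_52_P369776), and these did not pass in any of them.

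**Figure D3:**
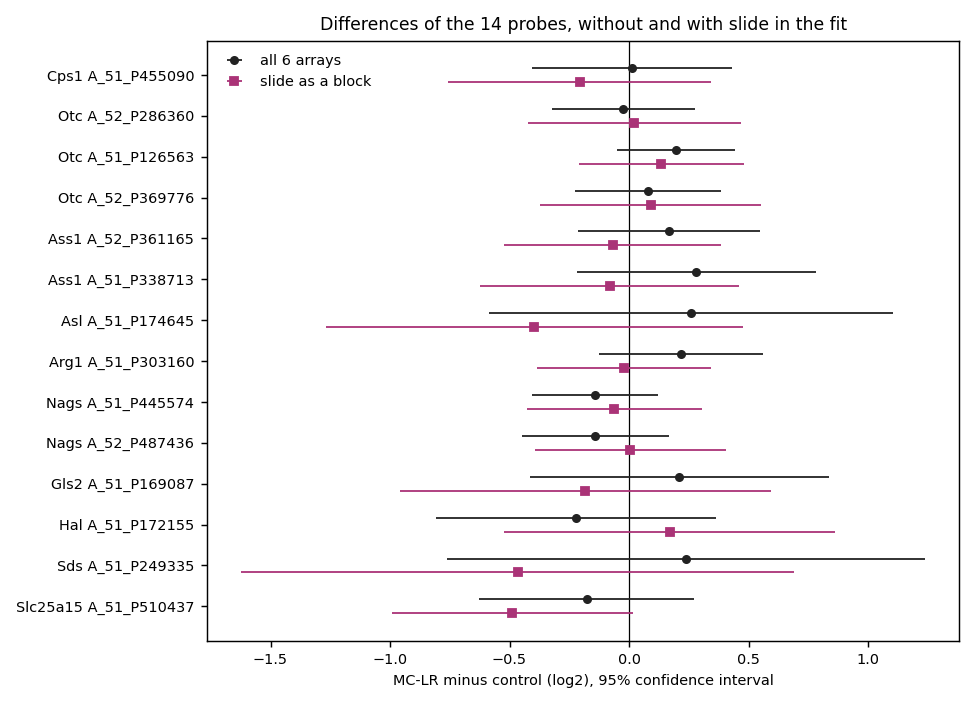
MC-LR minus control (log2 signal, x axis) for the 14 probes (y axis), with 95% confidence intervals, in the fit of all 6 arrays (circles) and with slide as a block (squares). All intervals of both fits include 0, and the squares of Asl, Gls2 and Sds lie on the other side of 0 from the circles.

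The other genes of nitrogen handling were read from lists of the pathway, with 1 probe per gene. Some genes, among them Slc7a2, Glul and G6pc, count in more than 1 list. Over the lists named here 0 genes passed the adjusted threshold in either direction (limma), where 0.0159% of all 18904 genes did, and at an unadjusted p under 0.05 7.52% of all genes were higher and 5.36% lower. Of the 17 genes that supply ammonia, aspartate or ornithine to the cycle, 1 was higher and 1 lower at an unadjusted p under 0.05, with a median of 0.19 (-0.01 over all genes). Slc7a2, a cationic amino acid transporter that carries arginine and ornithine, stood at 8.38 ± 0.49 and 9.28 ± 0.21 (mean ± SD, n = 3; adjusted p = 0.288, limma), and its difference of 0.90 was 0.33 with slide as a block. Aqp8, a channel reported to pass water and ammonia in mitochondria, stood at 15.81 ± 0.35 and 14.83 ± 0.68 (adjusted p = 0.355). Glud1, the glutamate dehydrogenase, differed by -0.08, the aspartate carrier Slc25a13 by 0.06 and the aspartate aminotransferase Got1 by 0.35, all with intervals that include 0.

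Pericentral capture of ammonia ran on Glul, the glutamine synthetase. It stood at 14.64, 14.76 and 14.14 in controls and at 14.89, 14.81 and 14.79 with MC-LR. All 3 MC-LR arrays lay above all controls, and control 3 was the lowest. The difference was 0.31 ± 0.18 (SE; adjusted p = 0.503, limma), and it was 0.69 in the fit that blocks on slide (adjusted p = 0.156). Oat, the ornithine aminotransferase of the same zone, differed by 0.22 (adjusted p = 0.483). Over 15 pericentral genes the median was 0.23, and 3 were higher and 0 lower at an unadjusted p under 0.05, among them Cyp2e1 (0.58) and Cyp2a5 (1.17), cytochrome P450 enzymes that stood at 0.72 and 0.54 with slide as a block. Over 16 periportal markers, which include 5 of the members, the median was 0.08, and 2 were higher and 2 lower, with Cdh1, an adhesion protein, at -0.66 and G6pc, the glucose-6-phosphatase subunit, at -1.10. The higher ones, named after their values were seen, were Uox, the urate oxidase, at 0.38 and Igfals, a binding partner of insulin-like growth factors, at 0.68. With slide as a block these 4 stood at -0.42, -0.33, 0.22 and 1.16. The difference between the zones was not tested. With slide as a block the medians were 0.45 and -0.06, and -0.13 over the 10 members.

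Amino acid breakdown and uptake supply the nitrogen. Of 37 measured genes of amino acid catabolism 9 were higher and 2 lower at an unadjusted p under 0.05, with a median of 0.13, and the groups did not overlap for 14 (20.4% of all genes did not). Bckdha, a subunit of the branched-chain keto acid dehydrogenase, stood at 14.23, 14.31 and 14.26 against 14.82, 14.75 and 14.58, and with slide as a block its difference of 0.45 was 0.46. Gldc, the glycine decarboxylase, stood at 12.33, 12.13 and 11.38 against 11.27, 10.71 and 10.89, a difference of -0.99 that was -0.43 with slide as a block. Tat, the tyrosine aminotransferase, differed by -0.06. Of 14 amino acid transporters 3 were higher and 1 lower, with a median of 0.26. The glutamine transporter Slc38a3 stood at 14.92, 14.90 and 14.59 against 15.65, 15.40 and 15.13, and the amino acid transporter Slc43a1 at 8.64, 8.24 and 7.78 against 9.30, 9.08 and 8.94. On both genes every MC-LR array lay above every control, and the adjusted p was 0.287 and 0.266 (limma).

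Glucagon, glucocorticoids and fasting raise urea cycle and amino acid enzymes in liver. Over 17 genes that respond to these signals 0 were higher and 3 lower at an unadjusted p under 0.05, with a median of 0.15, and the lower ones were Igfbp1 (-2.37), Pdk4 (-1.33) and G6pc (-1.10), at -1.59, -0.71 and -0.33 with slide as a block. Pdk4 inhibits pyruvate dehydrogenase, and its values of 9.74, 8.98 and 8.42 in controls lay above 7.37, 8.09 and 7.69 with MC-LR. Over 17 transcriptional regulators 2 were higher and 4 lower, with Foxa3 at -0.50 and Cebpd at -0.68 (-0.28 and -1.08 with slide as a block). Cebpb differed by 0.16 and Hnf4a by -0.09, both liver factors known to act on urea cycle genes.

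Branches that use arginine and ornithine and the related enzymes were read last. Over 17 genes of polyamine, creatine and nitric oxide synthesis 3 were higher and 1 lower at an unadjusted p under 0.05, with a median of 0.15. One of the higher genes, Azin2 (1.32, named after its values were seen), was well above background on 1 control array and 3 MC-LR arrays, so it passed the filter only through the group where it was high. Srm, the spermidine synthase, stood at 10.62, 10.80 and 10.95 against 11.33, 11.21 and 11.56, and Azin1, an antizyme inhibitor, differed by 0.60. Over 7 enzymes and carriers related to the members by sequence or reaction, 0 were higher and 0 lower, with a median of -0.17. Arg2, the mitochondrial arginase, stood at 6.44, 6.16 and 6.68 against 5.16, 6.34 and 5.85, a difference of -0.65 ± 0.31 (SE; adjusted p = 0.442, limma). Cad, the enzyme of pyrimidine synthesis, differed by -0.27.

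**Figure D4:**
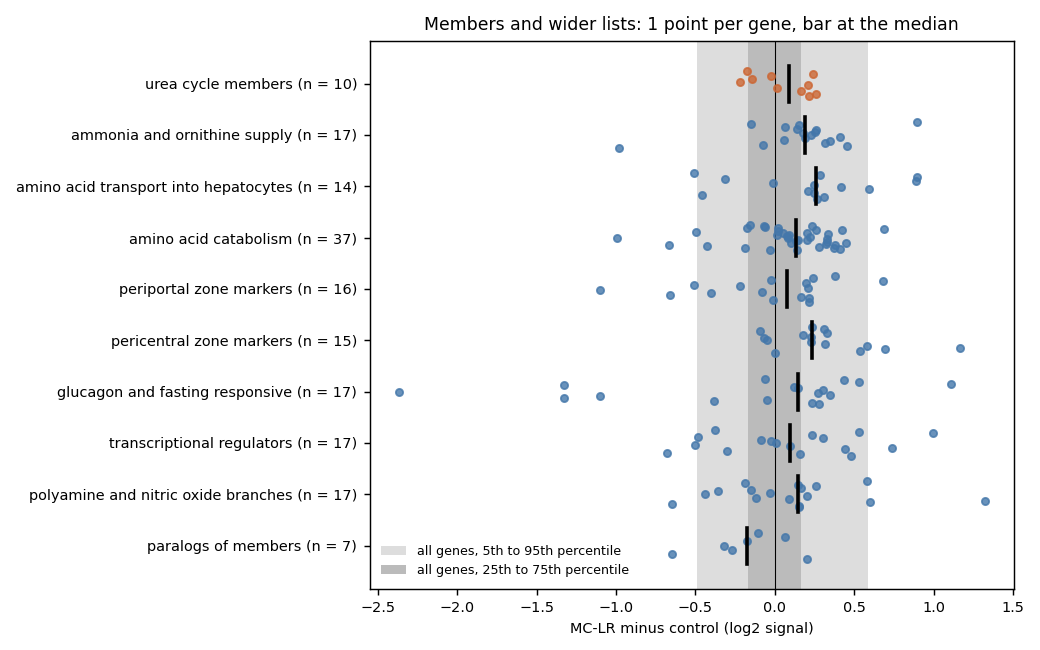
MC-LR minus control (log2 signal, x axis) for the measured genes of each list (y axis), 1 point per gene with a bar at the median, over bands that hold the middle of all 18904 genes. The 10 members lie between -0.22 and 0.26, inside the band from -0.49 to 0.58 that runs from the 5th to the 95th percentile.

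The genes most like Arg1, the member with the smallest p on its brightest probe, were Bmpr2, Denr and Rock2. Their Pearson r with Arg1 over the 6 arrays was 0.994, 0.994 and 0.992, the highest of the 18903 other genes searched. Bmpr2 read 10.73, 10.71 and 10.89 in the controls against 10.88, 10.83 and 10.94 in the MC-LR livers, so it too was low in controls 1 and 2. With 6 arrays of 2 slides and so many genes searched, this describes the likeness and no p is given.

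Start regions of the members were read where RefSeq gives them (GRCm38.p6), for 5 of the 10 genes and 6 start sites. The 250 bases before the start are printed for Ass1 and Hal, a pair that stood on opposite sides of controls 1 and 2 in control 3. Capitals mark matches, on either strand, to any of 6 motifs. The E-box was searched as CACGTG, the TATA motif as TATAAA and the CCAAT motif by these letters. The cAMP response element was searched as TGACGTCA, the C/EBP motif as TTGCNNCAA and the HNF4 motif as CAAAGTCCA. No match overlapped another.
Ass1, chr2:31470020-31470269, plus strand: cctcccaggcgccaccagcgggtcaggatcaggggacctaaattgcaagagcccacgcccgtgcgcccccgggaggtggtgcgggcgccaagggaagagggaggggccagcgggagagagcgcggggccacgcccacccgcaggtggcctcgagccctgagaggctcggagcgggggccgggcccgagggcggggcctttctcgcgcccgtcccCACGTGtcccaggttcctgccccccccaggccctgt
Hal, chr10:93488518-93488767, plus strand: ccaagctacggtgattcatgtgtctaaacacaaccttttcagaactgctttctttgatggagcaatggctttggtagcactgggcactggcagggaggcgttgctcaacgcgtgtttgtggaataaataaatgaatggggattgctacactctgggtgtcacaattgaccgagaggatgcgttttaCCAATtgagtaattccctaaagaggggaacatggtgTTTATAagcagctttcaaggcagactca
The Ass1 window is 75.6% G and C and holds an E-box 36 to 31 bases before the start, which 6.02% of the 32851 windows in the table hold. The Hal window is 45.6% G and C and holds a CCAAT motif (33.8% of windows) and, 28 to 23 bases before the start, the TATA letters read on the other strand (12.4%). Among the other start sites 1 of Slc25a15 holds an E-box. The remaining motifs matched none of the 6 windows and 1.55% (cAMP response element), 1.74% (C/EBP) and 0.384% (HNF4) of all windows. A match is a description of letters and does not show binding.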

How the data were processed

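RNA of 6 livers was labelled with Cy3, per the labels, and read on Agilent arrays of a single colour. The scanner files hold the intensity of each spot, per the file headers, and the submitters' processing notes name Agilent Feature Extraction 10.7. The deposited table holds log2 values, which the series' design text says were quantile normalized. Each of its columns followed the processed signal of the matching array (r of 0.998 or above), and the first sample column had a median of 5.94. Scale and direction are thus known.

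Members were found by gene name in the scanner files, and their values were read from the deposited table by probe name. Tests covered the 28500 probes that all 3 arrays of a group, either one, read well above background. The test was limma (version 3.58.1, R 4.3.3), fitted by lmFit and moderated by eBayes. It was two-sided, with residual df of 4 and prior df of 2.18, and p-values were adjusted over all probes by Benjamini-Hochberg (threshold 0.05). Lists use a gene's brightest passing probe from the same fit, with symbols updated through RefSeq (GRCm38.p6). All members are named, with the 2 genes of smallest p per list, fixed neighbours in the pathway, and the genes most like 1 member. Members and lists were chosen with earlier results of these data known. Pck1 and a few other list genes are not analysed here. A neighbour that the naming rule covers is not reported here. The steps were tested on simulated data with independent errors per probe and no slide effect, so that test did not cover the part of slide. Alternatives changed the scaling, background, filter, probes per gene, slide, replicate block, eBayes, weights and arrays used. Exon and UTR annotation of mm9 was not used here.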

Additional observations from a re-analysis of the deposited data

How the results depend on the processing

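The count of 0 member probes past the adjusted threshold held in every setting run (limma, adjusted p over the settings from 0.110 to 0.997). At an unadjusted p under 0.05 the count of member probes was 1 under normexp, 1 with trend and robust and 4 with array weights (limma). It was 0 to 2 with each array left out. Over all probes the count was 3894 of 28481 under normexp, 3800 of 28500 with trend and robust and 8316 of 28500 with array weights. With each array left out it ran from 2087 to 5812 of 28500, highest without control 3, where the members had 2. The member counts are thus not read as particular to the members. Array weights gave control 3 the lowest weight (0.279) and raised the calls over all probes from 3 to 1203 of 28500. Among them were 10 genes of the wider lists (Cyp2a5, Cyp2e1, Slc7a2, G6pc, Bckdha, Foxa3, Srm, Pdk4, Gldc and Igfbp1). These were counted with 1 probe per gene, and the share over all genes in that fit is not given here. Calls over all probes were also 13 with slide as a block, 0 on slide 2 alone (3322 at an unadjusted p under 0.05, limma), 70 without control 3 and 1 to 3 in the other settings apart from the replicate block. Signs changed as follows, and the cause was not tested. With slide as a block, and equally on slide 2 alone, the differences were -0.21 for Cps1, 0.022 for the brightest Otc probe, -0.068 and -0.081 for Ass1, -0.40 for Asl, -0.023 for Arg1, 0.0052 for the fainter Nags probe, -0.18 for Gls2, 0.17 for Hal and -0.47 for Sds. With slide as a random block they were -0.072 for Cps1 and -0.036 for Sds. The brightest Otc probe stood at 0.058 with 75th percentile scaling, 0.093 with median scaling and 0.085 as the mean of its probes. With each array left out in turn, the differences that changed sign ran from -0.090 to 0.15 for Cps1, from -0.081 to 0.085 for the brightest Otc probe, from -0.030 to 0.17 for Otc A_52_P369776, from -0.014 to 0.59 for Asl and from -0.046 to 0.59 for Sds. The replicate block gave 0 member probes and 0 calls over all probes. The numbers pair nothing visible, since same-numbered arrays deviated from their group means at r = 0.17, -0.30 and -0.18, and only the arrays numbered 1 correlated best with their own number. Other fits changed no call of a member. All members were well above background on all 6 arrays.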
